A study of Mus musculus with 32 samples.

Results

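The Trem genes encode the triggering receptors expressed on myeloid cells and the Trem-like proteins, a family of immunoglobulin-domain surface receptors. Their RNA was followed in 32 libraries of mouse bone marrow-derived macrophages, which are macrophages grown from marrow with the growth factor M-CSF. The family was taken as 6 named genes (Trem2, Treml1, Treml2, Trem1, Trem3 and Treml4) of the 24885 identifiers in the count table, matched by Entrez identifier. All 6 passed the filter on low counts, as did 11244 genes in all. The series as a whole asks how TREM2 bears on metabolism in microglia, the macrophages of the brain, whereas these libraries are of marrow-derived cells.

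The 8 groups, with 4 libraries each, crossed genotype (WT, or T2KO, the labels' name for Trem2-/-), M-CSF (low or normal) and LPS (none, or 10 ng/ml for 4 hours). Mice of both genotypes are labelled C57BL/6, and the tissue is labelled bone marrow. The labels credit the knockout line to an earlier report and do not say which part of Trem2 it lacks. The protocol names overnight culture in 0.5% or 10% LCCM, a culture supernatant used as the source of M-CSF, and that low means 0.5% is an inference. Whether a group's 4 libraries are separate mice, separate cultures or repeat libraries is not labelled, so p-values measure only their spread, which may be technical. Libraries 1 and 3, and libraries 2 and 4, of a group tended to differ less from each other than other pairs did. The median chi-square per degree of freedom over genes was 6.57 for the 16 such pairs (4.17 to 39.2) and 30.5 for the other 32 (10.3 to 86.0). Calls of the 6 genes that were lost when these pairs were summed are therefore given beside the result.

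TREM2 binds lipids, lipoproteins and cell debris, and signals through the adaptor DAP12 (gene Tyrobp) to the kinase SYK. It sustains survival and lipid handling in macrophages and microglia, and its ectodomain is shed by ADAM proteases. TREM1 uses the same adaptor and amplifies inflammatory responses of neutrophils and monocytes, and mouse TREM3 is a further DAP12-paired receptor encoded beside it. The Trem-like proteins differ: TLT-1 (Treml1) is a platelet and megakaryocyte receptor with an inhibitory tail, TLT-2 (Treml2) is found on macrophages, neutrophils and B cells, and TLT-4 (Treml4) is a receptor of macrophages and dendritic cells. M-CSF keeps macrophages alive and dividing, and LPS, a component of the bacterial outer membrane, starts their inflammatory response through TLR4.

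The 6 genes lie in 1 cluster on chromosome 17 (GRCm38.p6, the assembly of mm10). Trem1 is annotated at 48232713 to 48246927, Trem3 at 48247677 to 48258848, Treml4 at 48264200 to 48275607, Treml2 at 48299390 to 48312534, Trem2 at 48346401 to 48352276 and Treml1 at 48359916 to 48367176. Treml1 thus starts 13.5 kb beyond the start of Trem2. The long noncoding RNA gene Gm52308 overlaps Trem1, Trem3 and Treml4, and Gm52307 overlaps Trem1 and Trem3. The strand setting of the counting is not stated, so reads from these overlaps cannot be told apart. No 50-base word of the annotated transcripts of the 6 genes occurs in another family member. The libraries were primed with oligo-dT and read the 3' end, so levels are compared within a gene and never between genes.

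RefSeq promoter windows (GRCm38.p6, 250 bases before to 50 after the start) were at hand for 4 of the 6 genes, Trem2, Treml1, Trem1 and Treml4. The first 3 are shown because Trem2 and Treml1 moved in the same direction in T2KO cells with low M-CSF (without LPS) and with LPS, whereas Trem1 moved the other way with low M-CSF (without LPS) and, in low M-CSF, with LPS. Capitals mark matches on either strand to GAGGAA (the PU.1 core), TGANTCA (AP-1) and CACGTG (an E-box). An NF-kB motif and an interferon-stimulated response element, given by name only, were searched too and matched none of the 4 windows. The motifs were chosen with these sequences in view, and no match overlaps another. The windows are chr17:48346151-48346450 for Trem2, chr17:48359666-48359965 for Treml1 and chr17:48232489-48232788 for Trem1, all on the plus strand.
Trem2: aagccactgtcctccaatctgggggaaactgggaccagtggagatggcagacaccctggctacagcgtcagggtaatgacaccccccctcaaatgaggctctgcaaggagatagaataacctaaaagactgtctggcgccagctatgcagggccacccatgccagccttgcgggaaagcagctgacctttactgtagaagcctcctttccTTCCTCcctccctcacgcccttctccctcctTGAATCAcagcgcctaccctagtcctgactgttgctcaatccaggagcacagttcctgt
Treml1: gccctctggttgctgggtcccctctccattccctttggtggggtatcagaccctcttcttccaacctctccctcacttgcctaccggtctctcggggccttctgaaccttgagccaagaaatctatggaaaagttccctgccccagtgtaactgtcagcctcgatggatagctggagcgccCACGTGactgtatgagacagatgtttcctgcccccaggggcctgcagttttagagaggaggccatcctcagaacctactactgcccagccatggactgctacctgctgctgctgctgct
Trem1: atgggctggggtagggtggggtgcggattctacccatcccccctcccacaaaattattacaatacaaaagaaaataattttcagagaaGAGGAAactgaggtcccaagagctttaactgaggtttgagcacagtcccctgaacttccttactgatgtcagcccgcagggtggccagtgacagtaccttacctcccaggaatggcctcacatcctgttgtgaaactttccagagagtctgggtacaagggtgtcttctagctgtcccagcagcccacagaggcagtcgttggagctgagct
The Trem2 window holds 1 PU.1 core, on the minus strand with its first base 40 bases before the start, and 1 AP-1 motif 9 bases before the start. The Treml1 window holds 1 E-box, 69 bases before the start, and neither of the Trem2 motifs. The Trem1 window holds 1 PU.1 core, 162 bases before the start, and the Treml4 window holds 2. Distances are from the start on which each window was built. For Trem1 and Treml4 that start lies beyond the annotated gene start given above. Of 32851 promoters of that length in the same table, 28.3% hold GAGGAA, 7.81% TGANTCA, 7.15% CACGTG, 1.63% the NF-kB motif and 3.44% the interferon-stimulated response element. A match describes these letters only.

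Levels are given as CPM, counts scaled to a common library size with TMM factors. Log2 differences come from a negative binomial model of all 8 groups, and a gene is called when its adjusted p is below 0.05 over all 11244 genes. The model gives no standard error (SE). Each SE is the absolute log2 difference divided by the square root of its F statistic, and so is approximate. Library totals ranged from 3068863 to 15585423 counts. A count of 0 allows 3 counts at 95% confidence, which is 0.163 CPM in the deepest library and 1.46 CPM in the shallowest, for counting error only. TMM factors ran from 0.598 in T2KO low M-CSF LPS libraries to 1.37 in WT normal M-CSF libraries without LPS. In bulk RNA, fewer cells of a type and less RNA per cell cannot be told apart. All 10 macrophage markers, among them Adgre1, Csf1r and Cd68, had counts in every group.

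**Figure D1:**
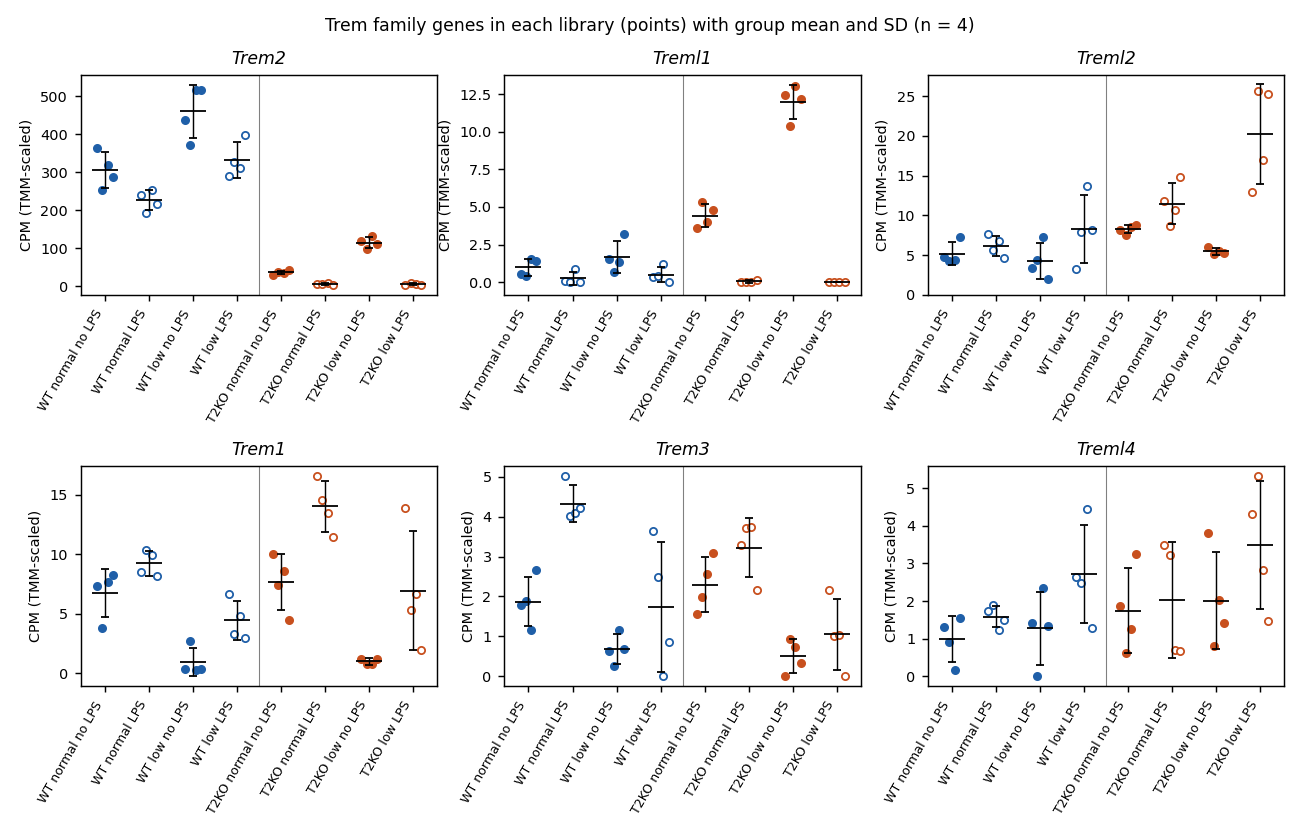
TMM-scaled CPM (vertical axes, a scale of its own for each gene) of the 6 Trem family genes in the 8 groups. Points are libraries (blue WT, orange T2KO, open with LPS), horizontal marks are means and bars are SD over 4 libraries. Trem2 is highest in WT cells in low M-CSF, and Treml1 is highest in T2KO cells without LPS.

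The Trem2 locus gave reads in every T2KO library, and the level depended on both M-CSF and LPS. Without LPS in low M-CSF, Trem2 had 118, 99.0, 132 and 110 CPM in the T2KO libraries and 438, 371, 516 and 517 CPM in the WT libraries. In normal M-CSF without LPS it had 30.5, 36.3, 35.8 and 42.6 CPM in T2KO and 363, 254, 319 and 286 CPM in WT. The groups did not overlap in either medium, and the T2KO mean was 25.0% of the WT mean in low and 11.9% in normal M-CSF.

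With LPS little of the T2KO signal was left. T2KO libraries had 4.01, 8.997, 6.66 and 4.37 CPM in low M-CSF and 5.90, 4.94, 9.01 and 3.65 CPM in normal M-CSF. WT libraries had 289, 328, 312 and 399 CPM in low M-CSF and 240, 194, 253 and 216 CPM in normal M-CSF. The T2KO mean was 1.81% of WT in low and 2.60% in normal M-CSF. Trem2 was lower in T2KO in all 4 conditions, by a log2 difference of -2.002 (SE 0.19, adjusted p = 6.52e-10) in low M-CSF without LPS, -5.76 (SE 0.25, adjusted p = 1.71e-19) in low M-CSF with LPS, -3.07 (SE 0.20, adjusted p = 1.19e-13) in normal M-CSF without LPS and -5.22 (SE 0.24, adjusted p = 7.02e-19) in normal M-CSF with LPS. Because the deleted part is not given and the reads come from the 3' end, the remaining reads do not measure intact Trem2 mRNA. Osteoclast markers also moved with genotype. Of 4 tested, Acp5, Dcstamp and Atp6v0d2 were lower in T2KO in low M-CSF with LPS. Dcstamp alone was called lower in low M-CSF without LPS, Atp6v0d2 alone in normal M-CSF without LPS, and both in normal M-CSF with LPS. The summed list was lower in T2KO without overlap in all 4 conditions. It ran from 27.2 to 32.6 CPM in T2KO and from 39.1 to 55.3 CPM in WT in low M-CSF without LPS, from 17.9 to 35.9 against 48.9 to 82.2 CPM with LPS, and in normal M-CSF from 5.17 to 11.5 against 22.0 to 29.8 CPM without and from 8.40 to 14.2 against 16.6 to 27.7 CPM with LPS. The summed monocyte markers ran from 137 to 173 CPM in T2KO and from 427 to 505 CPM in WT in low M-CSF without LPS. The part of these markers in the Trem2 result was not tested.

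The genotype difference of Trem2 therefore differed between conditions, and the interaction terms tested this directly. LPS widened it in low M-CSF by -3.76 (SE 0.30, adjusted p = 9.62e-11) and in normal M-CSF by -2.15 (SE 0.29, adjusted p = 7.09e-05). Low M-CSF narrowed it without LPS by 1.07 (SE 0.27, adjusted p = 0.0115), whereas with LPS the term was -0.54 (SE 0.32, adjusted p = 0.324). These calls held without any 1 library, but with libraries 1 and 3, and 2 and 4, summed the call in normal M-CSF was lost (-2.15, adjusted p = 0.516), as was the M-CSF term without LPS (1.08, adjusted p = 0.391).

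In WT cells Trem2 rose in low M-CSF. Mean levels were 460 ± 70.1 CPM (SD, n = 4) in low and 305 ± 46.7 CPM in normal M-CSF without LPS, a log2 difference of 0.59 (SE 0.19, adjusted p = 0.00938). With LPS they were 332 ± 47.4 and 226 ± 26.2 CPM, a difference of 0.55 (SE 0.19, adjusted p = 0.0148). The low and normal groups did not overlap in either case. The second call was lost without WT low M-CSF LPS replicate 4 (0.46, adjusted p = 0.0563) or WT normal M-CSF LPS replicate 2 (0.48, adjusted p = 0.0522). With the library pairs summed neither passed (0.60, adjusted p = 0.129, and 0.59, adjusted p = 0.127). The sums of 2 marker lists were higher in low M-CSF in the same WT libraries, though not every member rose. Of the 10 macrophage markers, 6 rose without LPS while Cd14 and C5ar1 fell, and with LPS 6 rose and none fell. Of 4 osteoclast markers tested, Atp6v0d2 alone was called without LPS, and Acp5 and Atp6v0d2 with LPS, all higher. The summed macrophage list ran from 8587 to 10169 CPM in low and from 5399 to 6115 CPM in normal M-CSF without LPS, and from 8376 to 12049.6 against 7285 to 8340.2 CPM with LPS. The osteoclast list ran from 39.1 to 55.3 against 22.0 to 29.8 CPM without and from 48.9 to 82.2 against 16.6 to 27.7 CPM with LPS. Their part in the Trem2 result was not tested.

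In T2KO cells the remaining Trem2 signal rose more in low M-CSF, to 115 ± 13.9 CPM from 36.3 ± 4.96 CPM without LPS, a log2 difference of 1.66 (SE 0.19, adjusted p = 5.23e-09). With LPS it was 6.01 ± 2.31 CPM in low and 5.88 ± 2.28 CPM in normal M-CSF, and the difference of 0.02 (SE 0.26, adjusted p = 0.958) did not pass. The M-CSF difference itself differed with LPS in T2KO cells (-1.65, SE 0.32, adjusted p = 0.000162). In WT cells that term was -0.04 (SE 0.26, adjusted p = 0.939).

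Trem2 fell with LPS in WT cells in low M-CSF, and far more in T2KO cells in both media. The log2 difference was -0.47 (SE 0.19, adjusted p = 0.0281) in WT cells in low M-CSF, where the groups overlapped. In WT cells in normal M-CSF it was -0.44 (SE 0.19, adjusted p = 0.0649), which did not pass although the groups did not overlap. In T2KO cells it was -4.23 (SE 0.24, adjusted p = 6.62e-18) in low and -2.59 (SE 0.22, adjusted p = 1.57e-12) in normal M-CSF. The WT call in low M-CSF was lost without WT low M-CSF LPS replicate 1 (adjusted p = 0.0665) or replicate 3 (0.0534), without WT low M-CSF no LPS replicate 3 (0.0512) or replicate 4 (0.0514), and with the pairs summed (-0.43, adjusted p = 0.220). The WT difference in normal M-CSF passed without WT normal M-CSF no LPS replicate 2 (-0.54, adjusted p = 0.0367), with RLE size factors (-0.50, adjusted p = 0.0295), in DESeq2 (-0.50, adjusted p = 0.00721) and in a fit of the compared groups only (adjusted p = 0.0307).

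Treml1, which encodes the platelet receptor TLT-1 and starts next to Trem2, was higher in T2KO cells without LPS. In low M-CSF without LPS the T2KO libraries had 12.5, 10.4, 13.0 and 12.2 CPM (82 to 224 counts), and the WT libraries 1.53, 0.640, 1.31 and 3.19 CPM (5 to 19 counts). In normal M-CSF without LPS they had 3.62, 5.31, 3.98 and 4.81 CPM, against 0.544, 0.425, 1.53 and 1.41 CPM in WT. The groups did not overlap in either medium. The log2 difference was 2.87 (SE 0.50, adjusted p = 5.66e-05) in low and 2.21 (SE 0.51, adjusted p = 0.0109) in normal M-CSF. The second was lost without WT normal M-CSF no LPS replicate 1 (2.01, adjusted p = 0.0540) or replicate 2 (1.93, adjusted p = 0.0678), and with the pairs summed (2.32, adjusted p = 0.0936).

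With LPS the Treml1 reads of T2KO cells were gone. None of the 4 T2KO libraries in low M-CSF held a count, against 591 counts in the 4 libraries without LPS, so Treml1 was at least 48.4-fold lower with LPS (against a floor of 3 counts over the group). In normal M-CSF 1 count was left of 149, a 99.4-fold ratio of pooled levels (95% exact interval 17.6 to 3950, counting error only). Both passed the test (adjusted p = 6.90e-09 and 4.20e-07), and their fitted log2 values depend on the prior count. In WT cells LPS left 5 counts against 45 in low M-CSF, a 3.24-fold ratio (95% exact interval 1.29 to 10.5) that did not pass (adjusted p = 0.0644). In normal M-CSF it left 6 counts against 44, and Treml1 fell by 2.07 on the log2 scale (SE 0.74, adjusted p = 0.0280). That call was lost without WT normal M-CSF LPS replicate 1, 2 or 4 or WT normal M-CSF no LPS replicate 3 or 4 (adjusted p = 0.0603 to 0.123), and with the pairs summed (adjusted p = 0.0566). The LPS difference in WT cells in low M-CSF passed without WT low M-CSF LPS replicate 3 (adjusted p = 0.0277) or WT low M-CSF no LPS replicate 2 (adjusted p = 0.0325).

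The LPS response of Treml1 differed between genotypes in low M-CSF (adjusted p = 0.00892), a call that was lost without WT low M-CSF LPS replicate 3 (adjusted p = 0.0574) and with the pairs summed (adjusted p = 0.0645). In normal M-CSF that term did not pass (adjusted p = 0.236). Low M-CSF raised Treml1 in T2KO cells without LPS, by 1.44 (SE 0.45, adjusted p = 0.00807), the direction that Trem2 took in the same libraries. In WT cells the difference was 0.79 (SE 0.54, adjusted p = 0.243) without LPS, and with LPS it passed only without WT normal M-CSF LPS replicate 3 (adjusted p = 0.0460), where few counts were left. The genotype by M-CSF term without LPS was 0.65 (SE 0.71, adjusted p = 0.713). With LPS the genotypes did not differ by the test (adjusted p = 0.0969 in low and 0.532 in normal M-CSF), with 0 to 3 counts in each WT library in low M-CSF and 0 to 5 in normal M-CSF.

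TLT-1 marks platelets and megakaryocytes, and the genes of the platelet glycoprotein complex were at or near 0 here. Gp1ba, Gp1bb and Gp6 had no count in any of the 8 groups, and Gp9 and Gp5 had none in 7 of them. The exceptions were T2KO low M-CSF without LPS for Gp9 and T2KO normal M-CSF without LPS for Gp5. Treml1 was higher than in WT in both of these groups. Only 3 of the 10 megakaryocyte and platelet markers passed the filter (Pf4, Ppbp and Vwf). In low M-CSF without LPS the summed list ran from 581 to 858 CPM in T2KO and from 454 to 573 CPM in WT libraries. In T2KO libraries in low M-CSF with LPS it ran from 1033 to 1671 CPM, where 6 of the 10 listed genes had no count. In that medium LPS raised Pf4 and Ppbp in T2KO cells, and Vwf was not called. Between genotypes in low M-CSF, Vwf was lower in T2KO without LPS, and Pf4 was higher with LPS. The part of these markers in the Treml1 result was not tested.

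**Figure D2:**
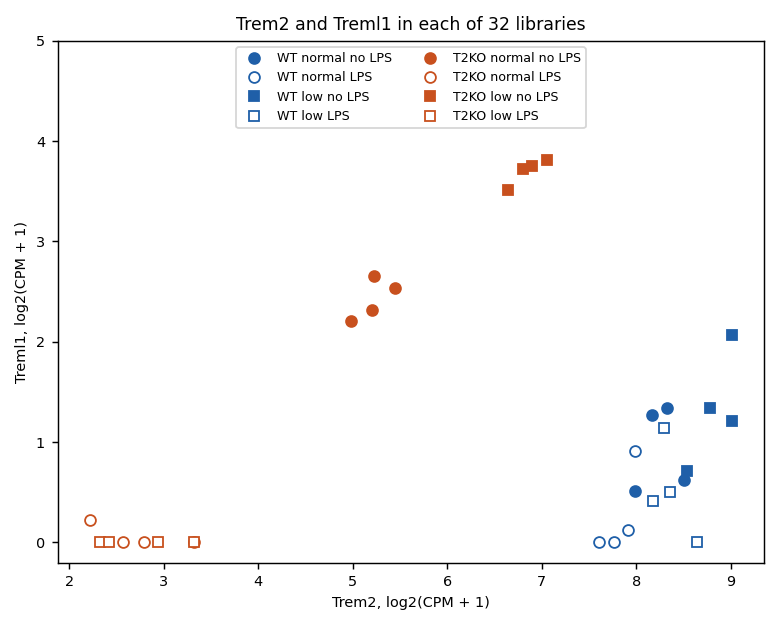
Trem2 (horizontal axis) against Treml1 (vertical axis), both as log2(CPM + 1), in each of the 32 libraries (colour genotype, shape M-CSF, open symbols LPS). The T2KO libraries without LPS, with 3.62 to 13.0 CPM of Treml1, stand above all other libraries, and T2KO libraries with LPS are low for both genes.

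Treml2, the macrophage and B cell receptor TLT-2, was highest in T2KO cells given LPS in low M-CSF. There the T2KO libraries had 13.0, 25.7, 16.9 and 25.2 CPM and the WT libraries 3.31, 7.85, 13.7 and 8.13 CPM. The log2 difference was 1.29 (SE 0.33, adjusted p = 0.00494), with 1 WT library above the lowest T2KO library. In normal M-CSF with LPS the T2KO mean was 11.5 ± 2.56 CPM and the WT mean 6.18 ± 1.27 CPM. Those groups did not overlap, but the difference of 0.88 (SE 0.31, adjusted p = 0.103) did not pass, except in a fit of the compared groups only (adjusted p = 0.0346). Without LPS the T2KO and WT means were 5.48 ± 0.432 and 4.28 ± 2.23 CPM in low and 8.28 ± 0.536 and 5.18 ± 1.43 CPM in normal M-CSF, and neither difference passed (adjusted p = 0.497 and 0.331).

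LPS raised Treml2 in low M-CSF. In T2KO cells the groups did not overlap and the log2 difference was 1.87 (SE 0.31, adjusted p = 1.77e-06). In WT cells it was 0.92 (SE 0.34, adjusted p = 0.0197), a call that was lost without WT low M-CSF LPS replicate 3 (0.54, adjusted p = 0.209), WT low M-CSF no LPS replicate 1 (0.78, adjusted p = 0.0702) or replicate 4 (0.66, adjusted p = 0.102), and in a fit of the compared groups only (adjusted p = 0.0860). In normal M-CSF the LPS difference was 0.47 (SE 0.30, adjusted p = 0.206) in T2KO and 0.30 (SE 0.31, adjusted p = 0.486) in WT. The LPS difference of T2KO cells was greater in low than in normal M-CSF by 1.40 (SE 0.42, adjusted p = 0.00988). The genotypes were not shown to differ in it (0.95, SE 0.45, adjusted p = 0.147 in low M-CSF), except without WT low M-CSF LPS replicate 3 (1.32, adjusted p = 0.0437).

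The effect of M-CSF on Treml2 in T2KO cells had opposite signs with and without LPS. With LPS Treml2 rose in low M-CSF by 0.80 (SE 0.30, adjusted p = 0.0222), and without LPS the difference was -0.60 (SE 0.30, adjusted p = 0.0942), which passed only in a fit of the compared groups (-0.70, adjusted p = 0.00763). The first was lost without T2KO low M-CSF LPS replicate 2 (0.67, adjusted p = 0.0773) or replicate 4 (0.70, adjusted p = 0.0608) or T2KO normal M-CSF LPS replicate 2 (0.71, adjusted p = 0.0610). B cell markers stayed at most at 5.44 CPM summed over the 5 listed genes, with Pax5 at 0 in all 8 groups.

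Trem1, the DAP12-paired amplifier of inflammatory responses, went the opposite way to Trem2 with M-CSF. Without LPS, WT libraries had 0.383, 2.69, 0.292 and 0.336 CPM in low M-CSF (2 to 21 counts) and 7.30, 3.77, 7.65 and 8.30 CPM in normal M-CSF. T2KO libraries had 1.22, 0.799, 0.734 and 1.19 CPM in low and 10.0, 7.44, 8.62 and 4.50 CPM in normal M-CSF. The media did not overlap in either genotype. Trem1 fell in low M-CSF by a log2 difference of -2.77 (SE 0.47, adjusted p = 8.66e-06) in WT and -2.96 (SE 0.44, adjusted p = 7.09e-07) in T2KO cells. Both calls held without any 1 library.

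With LPS the M-CSF difference of Trem1 was smaller. WT libraries had 6.63, 3.31, 4.85 and 2.99 CPM in low and 8.49, 10.4, 9.93 and 8.16 CPM in normal M-CSF, and the difference of -1.03 (SE 0.44, adjusted p = 0.0522) did not pass although the groups did not overlap. It passed without WT low M-CSF LPS replicate 1 (-1.31, adjusted p = 0.0362), with no filter on low counts (adjusted p = 0.0383), with a replicate block (0.0461) and in a fit of the compared groups only (0.0196). T2KO libraries had 13.9, 5.33, 6.66 and 1.94 CPM in low and 16.6, 14.6, 13.5 and 11.5 CPM in normal M-CSF. That difference of -0.96 (SE 0.40, adjusted p = 0.0395) passed, but was lost without any of T2KO low M-CSF LPS replicates 2, 3 and 4 or T2KO normal M-CSF LPS replicates 1, 2 and 3 (adjusted p = 0.0620 to 0.151), with RLE size factors (adjusted p = 0.0961), in DESeq2 (adjusted p = 0.101) and with the pairs summed (adjusted p = 0.117).

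LPS raised Trem1 in low M-CSF, by 2.21 (SE 0.53, adjusted p = 0.000551) in WT and 2.85 (SE 0.47, adjusted p = 1.82e-06) in T2KO cells, with no overlap of the groups. In normal M-CSF the LPS differences were 0.47 (SE 0.37, adjusted p = 0.357) in WT and 0.86 (SE 0.37, adjusted p = 0.0626) in T2KO, the latter past the threshold only in a fit of the compared groups (adjusted p = 0.00937). The LPS difference was greater in low M-CSF by 1.997 (SE 0.59, adjusted p = 0.00869) in T2KO, a call lost without T2KO low M-CSF LPS replicate 1 (1.44, adjusted p = 0.0628). In WT it was greater by 1.74 (SE 0.65, adjusted p = 0.0480). With 1 of the 16 WT libraries left out, that call held only without WT low M-CSF LPS replicate 2 or 4, WT low M-CSF no LPS replicate 2 or WT normal M-CSF no LPS replicate 2, and without any 1 of the other 12 the adjusted p was 0.0592 to 0.141. It was also lost in a fit of the compared groups only (adjusted p = 0.0640), with a replicate block (0.0528) and with the pairs summed (0.187). In no condition did Trem1 differ between genotypes by the test (adjusted p = 0.330 to 0.987). Its T2KO libraries lay above the WT libraries without overlap in normal M-CSF with LPS (0.59, SE 0.38, adjusted p = 0.470).

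Neutrophils are the best known source of Trem1, and 10 of the 12 listed neutrophil markers passed the filter. Their summed level ran from 72.2 to 92.9 CPM in WT and from 77.1 to 87.9 CPM in T2KO libraries in normal M-CSF without LPS. In low M-CSF without LPS it ran from 125 to 156 CPM in WT and from 198 to 262 CPM in T2KO, where Trem1 was lowest. With LPS in low M-CSF it ran from 211 to 231 CPM in WT and from 284 to 440 CPM in T2KO. Of the 10 markers, 3 rose in low M-CSF in WT and 7 in T2KO cells without LPS, and none fell; 6 were higher in T2KO than in WT cells in low M-CSF without LPS. Of the 5 listed monocyte markers 4 passed the filter. Ly6c2 fell in low M-CSF without LPS in both genotypes, as Trem1 did, whereas the chemokine receptor gene Ccr2 rose in both. The summed monocyte list ran from 427 to 505 CPM in low and from 100.2 to 148 CPM in normal M-CSF in WT libraries without LPS, and from 137 to 173 CPM and from 83.0 to 98.8 CPM in T2KO libraries. The part of neutrophil and monocyte markers in the Trem1 result was not tested.

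Trem3, the neighbour of Trem1 and also DAP12-paired, was low in all groups (453 counts over all 32 libraries) and was higher in normal M-CSF. T2KO libraries without LPS had 0, 0.944, 0.734 and 0.326 CPM in low and 1.55, 1.97, 2.57 and 3.10 CPM in normal M-CSF. They did not overlap, and Trem3 fell in low M-CSF by 2.07 on the log2 scale (SE 0.59, adjusted p = 0.00367). With LPS T2KO libraries had 2.16, 0.9997, 1.02 and 0 CPM in low and 3.28, 3.71, 3.75 and 2.16 CPM in normal M-CSF, a difference of -1.51 (SE 0.65, adjusted p = 0.0432). That call was lost without any of T2KO low M-CSF LPS replicates 2, 3 and 4 or T2KO normal M-CSF LPS replicates 1, 2 and 3 (adjusted p = 0.0648 to 0.117), with RLE size factors (adjusted p = 0.0746), with no filter on low counts (0.0549), with a replicate block (0.0515) and with the pairs summed (0.0516).

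In WT cells the M-CSF differences of Trem3 had the same sign and did not pass (-1.43, SE 0.61, adjusted p = 0.0534 without LPS and -1.26, SE 0.60, adjusted p = 0.0862 with LPS). The first passed in DESeq2 (adjusted p = 0.0297), in a fit of the compared groups only (0.0302) and without WT low M-CSF no LPS replicate 3 (0.0374) or WT normal M-CSF no LPS replicate 3 (0.0467), and the second without WT low M-CSF LPS replicate 1 (-1.95, adjusted p = 0.0281). With LPS in normal M-CSF, WT libraries had 5.02, 4.01, 4.08 and 4.21 CPM, the highest level of Trem3, against 1.79, 1.88, 1.15 and 2.67 CPM without LPS. That difference of 1.23 (SE 0.52, adjusted p = 0.0632) passed in DESeq2 (adjusted p = 0.0405) and in a fit of the compared groups only (adjusted p = 0.00909). In low M-CSF it was 1.40 (SE 0.70, adjusted p = 0.0813), which passed in DESeq2 (adjusted p = 0.0443) and without WT low M-CSF LPS replicate 3 (1.78, adjusted p = 0.0213). The genotypes did not differ by the test (adjusted p = 0.555 to 0.933). T2KO libraries lay below the WT libraries without overlap in normal M-CSF with LPS (-0.43, SE 0.52, adjusted p = 0.761).

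Treml4, a receptor of macrophages and dendritic cells, had 382 counts over the 32 libraries and was called in none of the 18 comparisons. Its group means ran from 0.983 ± 0.613 CPM in WT cells in normal M-CSF without LPS to 3.48 ± 1.70 CPM in T2KO cells in low M-CSF with LPS, and every group overlapped its neighbour in that order. Its SE on the log2 scale was 0.64 to 0.73 in the 12 pairwise comparisons, and no difference was detectable at this depth.

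Ordered by level, the groups of each gene fell in a different sequence. For Trem2 the WT groups came first, led by low M-CSF without LPS, and then T2KO low M-CSF without LPS, T2KO normal M-CSF without LPS and the LPS-treated T2KO groups. Neighbouring groups in that order overlapped between the first 3 WT groups and between the last 2 T2KO groups only. For Treml1 the order began with T2KO low and T2KO normal M-CSF without LPS, each separate from the group after it, and all later neighbours overlapped. For Treml2 all neighbours overlapped. For Trem1 the first group, T2KO normal M-CSF LPS, stood above WT normal M-CSF LPS, and WT low M-CSF LPS stood above both groups in low M-CSF without LPS. For Trem3 only the first, WT normal M-CSF LPS, was separate from the group after it.

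Counted over the family, 27 of the 72 gene and comparison pairs were called in the 12 pairwise comparisons. Between genotypes, Treml1 was higher and Trem2 lower in low M-CSF without LPS (2 of 6, where 16.7% of all genes were called) and in normal M-CSF without LPS (2 of 6, against 1.86%). With LPS, Treml2 was higher and Trem2 lower in low M-CSF (2 of 6, against 19.1%), and Trem2 alone was lower in normal M-CSF (1 of 6, against 4.04%). With RLE size factors the share of higher genes among all calls in low M-CSF with LPS moved from 42.9% to 53.2%. Trem2, called in all 4, is the targeted gene.

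For M-CSF, 2 of 6 were called in WT cells without LPS (Trem2 higher, Trem1 lower, against 44.3% of all genes), 1 of 6 with LPS (Trem2 higher, against 45.6%), 4 of 6 in T2KO cells without LPS (Trem2 and Treml1 higher, Trem1 and Trem3 lower, against 48.2%) and 3 of 6 with LPS (Treml2 higher, Trem1 and Trem3 lower, against 59.2%). For LPS, 3 of 6 were called in WT cells in low M-CSF (Treml2 and Trem1 higher, Trem2 lower, against 60.7%), 1 of 6 in normal M-CSF (Treml1 lower, against 36.1%), 4 of 6 in T2KO cells in low M-CSF (Treml2 and Trem1 higher, Trem2 and Treml1 lower, against 67.5%) and 2 of 6 in normal M-CSF (Trem2 and Treml1 lower, against 42.7%). These shares were near or below the background. The 4 of 6 for M-CSF in T2KO cells without LPS lay above its 48.2%, a small gap for 6 genes that was not tested. Over the 12 pairwise comparisons the median log2 difference of the 6 genes ran from -0.47 for M-CSF in T2KO cells with LPS (-0.14 over all genes) to 1.01 for LPS in WT cells in low M-CSF (-0.18 over all genes). In both of these, members were called in both directions, so the median describes no common change.

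Of the 6 interaction terms, genotype by LPS called 2 of 6 in low M-CSF (Trem2 and Treml1, against 16% of all genes) and 1 of 6 in normal M-CSF (Trem2, against 0.534%). Genotype by M-CSF called 1 of 6 without LPS (Trem2, against 4.62%) and 0 with LPS (5.49% of all genes). No member had an unadjusted p under 0.05 in that last term (0.102 to 0.901), and DESeq2 called none. M-CSF by LPS called 1 of 6 in WT cells (Trem1, against 23.6%) and 3 of 6 in T2KO cells (Trem2, Treml2 and Trem1, against 35.3%). With RLE size factors the share of higher genes among all calls moved from 40.0% to 53.6% for genotype by M-CSF with LPS, from 46.9% to 60.8% for genotype by LPS in low M-CSF, and from 37.6% to 50.4% for M-CSF by LPS in T2KO cells.

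**Figure D3:**
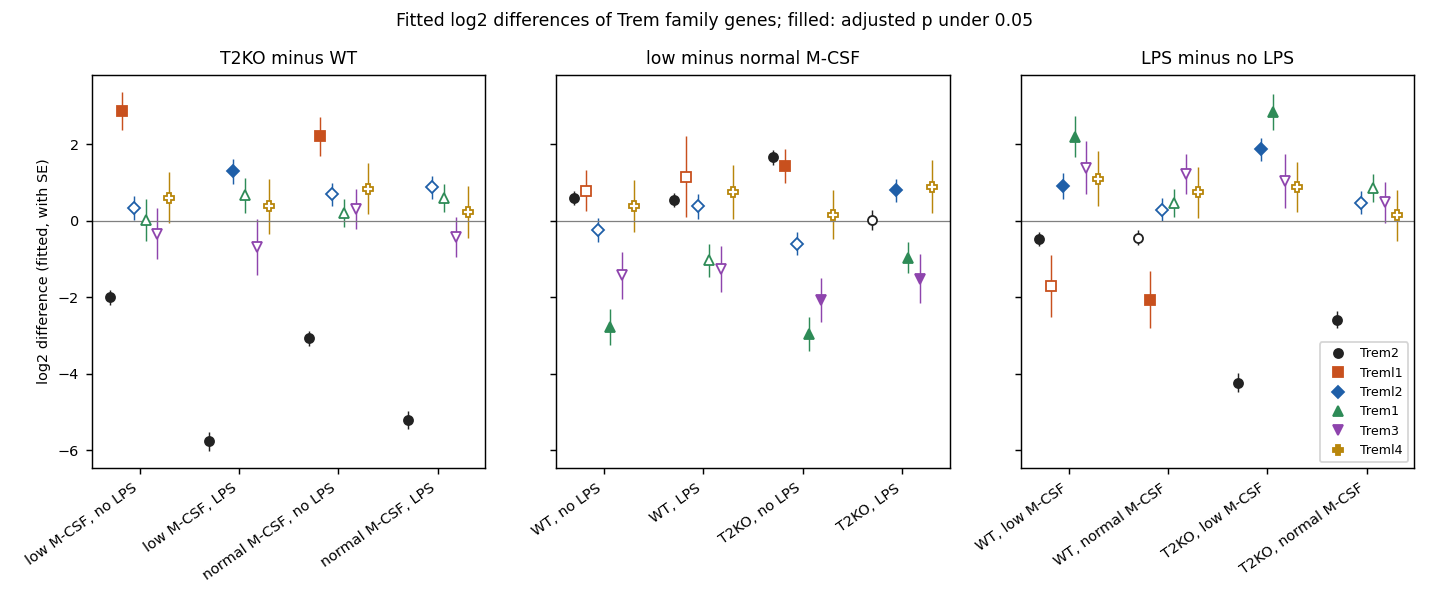
Fitted log2 differences (vertical axis) with SE for the 6 genes in the 12 pairwise comparisons (horizontal axis); filled symbols have an adjusted p under 0.05. Treml1 is left out where 1 group had 0 or 1 count. Trem2 and Trem1 lie on opposite sides of 0 for M-CSF without LPS in both genotypes.

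Relatives of the family in and beside the cluster also differed between genotypes. Within 300 kb of the start of Trem2, 4 other annotated genes passed the filter. A530064D06Rik (an alias is Trem4) lies at 48151896 to 48167257 and B430306N03Rik (Treml6) at 48315279 to 48326511 of chromosome 17, the latter between Treml2 and Trem2, and both are family relatives outside the named list. Nfya, a subunit of the CCAAT-binding factor NF-Y, starts 40.5 kb and Oard1, an ADP-ribose hydrolase, 63.6 kb beyond the start of Trem2. Of the annotated 50-base words, 5.61% of A530064D06Rik and 3.52% of B430306N03Rik occur in another family gene, so their counts are uncertain to that extent.

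A530064D06Rik had 7.93 ± 2.41 CPM in T2KO and 2.03 ± 0.283 CPM in WT cells in low M-CSF without LPS, and 5.97 ± 0.918 against 1.48 ± 1.23 CPM with LPS. The log2 differences were 1.95 (SE 0.33, adjusted p = 3.03e-05) and 1.94 (SE 0.43, adjusted p = 0.00171). B430306N03Rik had 29.2 ± 3.03 against 12.4 ± 1.30 CPM without LPS and 27.7 ± 2.61 against 13.3 ± 3.97 CPM with LPS, differences of 1.23 (SE 0.20, adjusted p = 2.18e-05) and 1.06 (SE 0.23, adjusted p = 0.000962). All 4 calls held without any 1 library. Both genes also differed in T2KO in normal M-CSF with LPS (1.08, adjusted p = 0.0350, and 0.80, adjusted p = 0.0138). The first was lost without T2KO normal M-CSF LPS replicate 2 or 3 or any 1 of the 4 WT normal M-CSF LPS libraries (adjusted p = 0.0522 to 0.154) and with no filter on low counts (0.0611), and the second without T2KO normal M-CSF LPS replicate 3 or 4 or WT normal M-CSF LPS replicate 2 or 4 (adjusted p = 0.0544 to 0.112). With the pairs summed both were lost (adjusted p = 0.241 and 0.243). Neither passed in normal M-CSF without LPS (0.79, adjusted p = 0.233, and 0.15, adjusted p = 0.896).

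Nfya did not differ between genotypes by the test in any condition (adjusted p = 0.558 to 0.881). Oard1 was lower in T2KO in normal M-CSF with LPS (-0.98, SE 0.29, adjusted p = 0.0433), a call that was lost without any of T2KO normal M-CSF LPS replicates 1, 3 and 4 or WT normal M-CSF LPS replicates 2, 3 and 4 (adjusted p = 0.0815 to 0.169), with a replicate block (0.0548) and with the pairs summed (0.319). It was not called in the other conditions. Of the 4 members between A530064D06Rik and B430306N03Rik, Treml2 was higher in T2KO in low M-CSF with LPS (1.29, adjusted p = 0.00494), and Trem1, Trem3 and Treml4 did not differ between genotypes by the test in any condition.

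**Figure D4:**
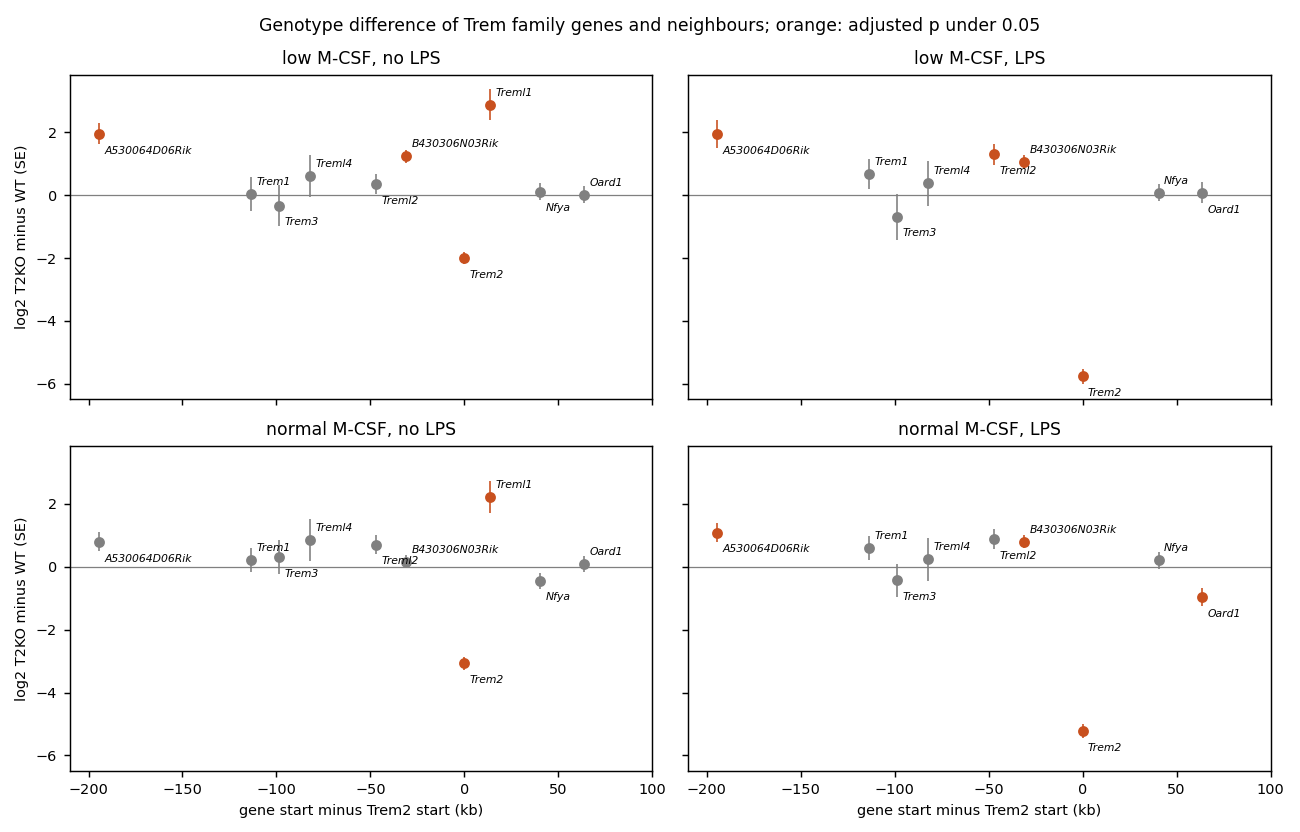
Log2 difference of T2KO minus WT (vertical axis, with SE) against the distance of each gene's start from that of Trem2 (horizontal axis, kb), for Trem family genes and the 4 neighbours in each condition. Orange marks an adjusted p under 0.05. Treml1 is left out with LPS, where T2KO libraries held 0 or 1 count in all. A530064D06Rik and B430306N03Rik are higher in T2KO in 3 conditions each.

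The genes whose level was most like that of each member were ranked by Pearson's r of log2 CPM over the 16 WT libraries, which fall in 4 groups, so r mostly follows group differences. For Trem2 they were Smim14 (r = 0.94), Arsk (0.94) and Idh1 (0.92), with 0.84, 0.90 and 0.91 over the 16 T2KO libraries. For Trem1 they were Hnrnpab (0.96), Slc7a1 (0.95) and Tagln2 (0.94), with 0.92, 0.90 and 0.91 in T2KO. For Treml1 they were Zfp597, Exoc8 and Thra (0.86, 0.86 and 0.83), of which Zfp597 dropped to 0.29 in T2KO while Exoc8 and Thra had 0.84 and 0.83. For Trem3 they were Imp4, Nmral1 and Chchd4 (0.91, 0.87 and 0.87, with 0.44, 0.65 and 0.68 in T2KO). For Treml2 (Snord104, H2-T10 and Tnfrsf13c, r = 0.82, 0.77 and 0.75) and Treml4 (Agpat1, Laptm4b and Rbm42, r = 0.82, 0.78 and 0.77) r in T2KO was -0.47, 0.78 and -0.13, and 0.46, -0.30 and -0.13, so most of these likenesses were not seen there.

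The adaptors and the kinase of the pathway were looked at by name, with their values in view, outside the rule used for other genes. Tyrobp, the shared adaptor DAP12, did not differ between genotypes by the test in any condition (adjusted p = 0.287 to 0.908). It rose in low M-CSF without LPS, from 829 ± 181 to 1315 ± 274 CPM in WT (0.67, SE 0.16, adjusted p = 0.000888) and from 767 ± 94.8 to 1214 ± 103 CPM in T2KO (0.66, SE 0.16, adjusted p = 0.000805). With the pairs summed neither passed (adjusted p = 0.0691 and 0.0574). With LPS it rose in low M-CSF in WT (0.42, SE 0.16, adjusted p = 0.0312), a call lost without WT low M-CSF LPS replicate 2 or 4 or WT normal M-CSF LPS replicate 2 or 4 (adjusted p = 0.0682 to 0.0869), with no filter on low counts (0.0816) and with the pairs summed (0.223). In T2KO the difference with LPS was -0.05 (SE 0.16, adjusted p = 0.794), and the M-CSF by LPS term of T2KO cells was -0.72 (SE 0.23, adjusted p = 0.0132). LPS lowered Tyrobp in T2KO cells in low M-CSF by a log2 difference of -0.43 (SE 0.16, adjusted p = 0.0165). With RLE size factors and with the pairs summed, the interaction call (adjusted p = 0.0560 and 0.181) and the LPS call (0.0698 and 0.167) were lost, the latter also in a fit of the compared groups only (0.0982). In the other 3 settings the LPS difference of Tyrobp did not pass (adjusted p = 0.101 to 0.828). Hcst, the adaptor DAP10, also rose in low M-CSF without LPS, by 0.81 (SE 0.25, adjusted p = 0.00964) in WT and 0.89 (SE 0.25, adjusted p = 0.00359) in T2KO; the WT call was lost with the pairs summed (adjusted p = 0.0951). Hcst was called in no other comparison. Syk, the kinase that DAP12 recruits, rose with LPS in all 4 settings, by 1.53 to 2.19 on the log2 scale, and in low M-CSF in all 4 settings, by 0.39 (WT without LPS) to 1.27 (T2KO with LPS). The call at 0.39 (adjusted p = 0.0219) was lost without WT low M-CSF no LPS replicate 2 or WT normal M-CSF no LPS replicate 2 or 4 (adjusted p = 0.0526 to 0.0636), with no filter (0.0727), in a fit of the compared groups only (0.0902) and with the pairs summed (0.248). The M-CSF by LPS term of Syk in WT cells was 0.66 (SE 0.20, adjusted p = 0.0136), which was lost without WT normal M-CSF no LPS replicate 1 (0.0527), with no filter (0.0709) and with the pairs summed (0.233). Syk did not differ between genotypes by the test (adjusted p = 0.0807 to 0.312).

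Of 26 adaptor and proximal signalling genes, all tested, 1 was higher and 2 were lower in T2KO than in WT cells in low M-CSF without LPS (16.7% of all genes were called there; median -0.13, against 0.07 over all genes). These were Lyn, a Src-family kinase (0.67, adjusted p = 0.00862), Lat2, a membrane scaffold (-0.96, adjusted p = 0.000116), and Fyn, a further Src-family kinase (-0.48, adjusted p = 0.0365). The Lyn call was lost without WT low M-CSF no LPS replicate 1 (adjusted p = 0.0549) or replicate 3 (adjusted p = 0.0534), in a fit of the compared groups only (0.124) and with the pairs summed (0.239), and the Fyn call without any of 7 of the 8 libraries (adjusted p = 0.0540 to 0.152), all but WT low M-CSF no LPS replicate 4, with no filter on low counts (0.0826) and with the pairs summed (0.334). In low M-CSF with LPS 5 were higher and 1 was lower (against 19.1% of all genes). Among them, Vav3 (1.54, adjusted p = 0.000577), the phosphatase gene Ptpn6 (1.06, adjusted p = 0.00166) and Lat2, the 1 lower gene (-0.93, adjusted p = 0.00171), held without any 1 library and were lost with the pairs summed (adjusted p = 0.0527, 0.0721 and 0.0701). In normal M-CSF without LPS 1 was lower (against 1.86%), the kinase gene Src (-2.63, SE 0.68, adjusted p = 0.0277), a call lost without T2KO normal M-CSF no LPS replicate 2, 3 or 4 or WT normal M-CSF no LPS replicate 1 or 2 (adjusted p = 0.0537 to 0.169). With LPS 1 was higher (against 4.04%), the adaptor gene Lcp2 (0.80, SE 0.21, adjusted p = 0.0247), a call lost without T2KO normal M-CSF LPS replicate 2 or 4 or WT normal M-CSF LPS replicate 1, 2 or 3 (adjusted p = 0.0518 to 0.116) and with the pairs summed (0.441).

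With low M-CSF, 13 of the 26 rose and 2 fell in WT cells without LPS (44.3% of all genes were called, in either direction) and 14 rose and 4 fell in T2KO cells (48.2%), and with LPS 16 rose and 3 fell in WT (45.6%) and 20 and 3 in T2KO cells (59.2%). With LPS 11 rose and 8 fell in WT (60.7%) and 15 and 7 in T2KO cells (67.5%) in low M-CSF, and 8 and 4 in WT (36.1%) and 9 and 8 in T2KO cells (42.7%) in normal M-CSF. Among LPS-treated cells the greatest called M-CSF change was in Src in WT (2.51, SE 0.28, adjusted p = 6.81e-09) and in Lat2 in T2KO cells (-2.80, SE 0.20, adjusted p = 6.41e-14).

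Of 11 genes for TREM ligands, a coreceptor and a semaphorin, 8 were tested. In low M-CSF without LPS 6 were higher in T2KO than in WT cells and none was lower (against 16.7% of all genes called; median 0.68, against 0.07 over all genes), led by Sema6d, a semaphorin (1.74, SE 0.60, adjusted p = 0.0424), Apoe, a lipoprotein that TREM2 binds (1.47, SE 0.14, adjusted p = 5.68e-10), and C1qa, a complement component (0.96, SE 0.21, adjusted p = 0.000853). The Sema6d call was lost without any 1 of the 8 libraries (adjusted p = 0.0598 to 0.103), and likewise with no filter on low counts (0.0514), a replicate block (0.0593) or the pairs summed (0.129), and the C1qa call with the pairs summed (adjusted p = 0.0728). In low M-CSF with LPS 1 was higher, Apoe (1.15, SE 0.14, adjusted p = 3.04e-07), and 1 was lower, Cirbp (-1.31, SE 0.41, adjusted p = 0.0206; 19.1% of all genes were called). The Cirbp call was lost without T2KO low M-CSF LPS replicate 1 or 4 or WT low M-CSF LPS replicate 2 (adjusted p = 0.0607 to 0.0976), in a fit of the compared groups only (0.136) and with the pairs summed (0.0803). In normal M-CSF none was called without LPS, and with LPS 1 was lower, Hmgb1 (-0.74, SE 0.21, adjusted p = 0.0383; 4.04% of all genes), which was lost without any 1 of the 8 libraries (adjusted p = 0.0607 to 0.114), with a replicate block (0.0527) and with the pairs summed (0.465). Apoe had 10392 ± 682 CPM in T2KO and 3747 ± 615 CPM in WT cells in low M-CSF without LPS, and 507 ± 34.98 and 447 ± 53.3 CPM in normal M-CSF. With low M-CSF 6 of the 8 rose in T2KO cells without LPS (48.2% of all genes were called), and in WT cells 2 rose and 1 fell (44.3%). With LPS 2 rose and 1 fell in T2KO (59.2%) and 4 rose and 1 fell in WT cells (45.6%). For LPS itself, 2 rose and 2 fell in WT cells in low M-CSF (60.7%) and 1 fell in normal M-CSF (36.1%), while in T2KO cells 3 fell in low (67.5%) and 2 in normal M-CSF (42.7%). Without LPS Apoe had the greatest M-CSF change in both genotypes, by 4.36 (SE 0.16, adjusted p = 4.22e-22) in T2KO and 3.07 (SE 0.15, adjusted p = 2.51e-18) in WT cells.

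Of 10 genes for shedding of TREM2 and for gamma-secretase, 2 were higher in T2KO than in WT cells in low M-CSF without LPS (against 16.7% of all genes called), Rhbdf2, a cofactor of ADAM17 (1.02, SE 0.17, adjusted p = 3.27e-05), and Psenen, a gamma-secretase subunit (0.68, SE 0.16, adjusted p = 0.00288; 0.175 with the pairs summed). None was called between genotypes in the other 3 conditions. Rhbdf2 had the greatest called LPS change of the list in all 4 settings, from 2.48 (SE 0.18, adjusted p = 8.91e-15) in T2KO in normal M-CSF to 3.60 (SE 0.18, adjusted p = 4.86e-19) in WT in low M-CSF. With low M-CSF 6 of the 10 rose in WT (44.3% of all genes were called) and 7 in T2KO cells (48.2%) without LPS, and none fell. With LPS 4 rose and none fell in WT (45.6%), and 2 rose and 1, Aph1a, fell in T2KO cells (59.2%); the Aph1a call was lost with the pairs summed (adjusted p = 0.111). For LPS itself, 4 rose and 4 fell in WT (60.7%) and 2 rose and 5 fell in T2KO cells (67.5%) in low M-CSF, and in normal M-CSF 2 rose and none fell in WT (36.1%) and 4 rose and 2 fell in T2KO cells (42.7%).

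Of 11 other receptors that pair with DAP12, 9 were tested. Only Cd300lb, a lipid-binding CD300 receptor, was called between genotypes, in low M-CSF with LPS (1.95, SE 0.56, adjusted p = 0.0126; 19.1% of all genes were called), with 19.6 ± 26.5 CPM in T2KO and 4.73 ± 1.78 CPM in WT. Without T2KO low M-CSF LPS replicate 4 the difference was 0.50 (adjusted p = 0.460), and the call was also lost in a fit of the compared groups only (0.110) and with the pairs summed (0.103). Cd300lb fell with LPS in all 4 settings, by log2 differences of -4.50 in WT and -2.77 in T2KO cells in low M-CSF and -3.21 and -3.32 in normal M-CSF (adjusted p = 2.10e-09 to 1.17e-06). Clec5a, an activating lectin receptor of myeloid cells, rose with LPS in low M-CSF in both genotypes, by 2.87 in WT (SE 0.28, adjusted p = 2.88e-11) and 3.57 in T2KO cells (SE 0.29, adjusted p = 1.57e-13). With low M-CSF Siglech, a sialic acid-binding receptor, rose in all 4 settings, from means of 0.0892 to 0.528 CPM in normal to 2.71 to 7.19 CPM in low M-CSF; the normal levels were near the floor, so no fold is given.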

How the data were processed

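Per the file headers and values, the authors deposited raw gene counts (whole numbers, not normalised) for 32 libraries under 24885 Entrez identifiers. STAR, HTSeq, DESeq2 and mm10 are listed, per the submitters' processing notes; versions, annotation and strand setting are not given in the sources used here. The labels describe barcoded oligo-dT priming and name no molecular identifiers. Identifiers were matched to the RefSeq annotation of GRCm38.p6 (23969 matched, with 99.5% of counts). The 18 contrasts were fitted in 1 model of 8 group means with edgeR 4.0.16 (R 4.3.3; TMM, filterByExpr with a minimum count of 10, quasi-likelihood F test, two-sided, Benjamini-Hochberg over 11244 genes); the scripts were tested on simulated data. Replicate numbers entered no fit except the alternative with a block. Libraries were grouped by their titles. Genes named are the 6 members, the 3 most correlated genes of each over WT libraries, tested genes within 300 kb, and the called genes of greatest change in 4 lists, up to 3 for each list and comparison. Members and lists were chosen with earlier results of these data known. Alternatives were RLE factors, no filter, DESeq2 1.42.0, compared groups only, a replicate block, summed library pairs and leaving out each library.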

Additional observations from a re-analysis of the deposited data

Results flagged for a closer look

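In 4 groups of 4 libraries 1 library stood apart from the other three; 47 groups were tested, and chance gives about 1 in 20. Treml1 in T2KO normal M-CSF LPS had 0.166 CPM in replicate 4 and 0 in the rest, and in WT normal M-CSF LPS it had 0.887 CPM in replicate 3; these are 1 and 5 counts. Treml2 had 7.32 CPM in WT normal M-CSF no LPS replicate 4, and Trem1 had 2.69 CPM in WT low M-CSF no LPS replicate 2.

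For 8 differences between groups the interaction term itself passed the test. For Trem2 these were genotype by M-CSF without LPS (1.07), genotype by LPS in low (-3.76) and normal M-CSF (-2.15), and M-CSF by LPS in T2KO (-1.65). For Treml1 it was genotype by LPS in low M-CSF, with a fitted value of -7.77 that depends on the prior count because no T2KO library with LPS held a count. For Trem1 the M-CSF by LPS term was 1.74 in WT and 1.997 in T2KO, and for Treml2 it was 1.40 in T2KO.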

How the results depend on the processing

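Of the 35 member calls, 33 were kept with RLE factors, 34 with no filter on low counts, 34 in DESeq2, 31 of the 33 that could be fitted with the compared groups only, 33 with a replicate block and 24 with libraries 1 and 3, and 2 and 4, summed, which leaves 2 samples a group. Of 344 fits with 1 library left out, 299 kept the call, and no member call changed direction. Replicate numbers were not taken to pair libraries: same-numbered deviations correlated at -0.30 to 0.27, and the own number was best for 0 to 7 of 8 libraries. With the replicate block the members called were 2 for M-CSF in WT with LPS and 0 for M-CSF by LPS in WT. Members called with RLE factors were 1 for M-CSF in T2KO with LPS and 2 for LPS in WT in normal M-CSF, with no filter 2 for M-CSF in WT with LPS, and in DESeq2 3 for LPS in WT in normal M-CSF. With the compared groups only they were 2 for genotype in normal M-CSF with LPS, 2 for M-CSF in WT with LPS, 2 for LPS in WT in normal M-CSF and 0 for M-CSF by LPS in WT. With pairs summed they were 1 for genotype in normal M-CSF without LPS, M-CSF in WT without LPS, M-CSF in T2KO with LPS and genotype by LPS in low M-CSF, and 0 for M-CSF in WT with LPS, LPS in WT in normal M-CSF, genotype by M-CSF without LPS, genotype by LPS in normal M-CSF and M-CSF by LPS in WT. With 1 library left out they ran from 1 to 2 for genotype in normal M-CSF without LPS, 1 to 4 for LPS in WT in low and 0 to 2 in normal M-CSF, 0 to 3 for M-CSF with LPS in WT and in T2KO, and 0 to 1 for M-CSF by LPS in WT. Signs reversed for Cd300lb with M-CSF in T2KO with LPS and for B430306N03Rik between genotypes in normal M-CSF without LPS. Cd300lb had 1.23, with -0.21 (adjusted p = 0.654) without T2KO low M-CSF LPS replicate 4 and up to 1.66 without replicate 1. B430306N03Rik had 0.15, with -0.0065 without T2KO normal M-CSF no LPS replicate 4 and up to 0.25 without WT normal M-CSF no LPS replicate 4. Neither reversed value was called, and B430306N03Rik was called in none of these fits. The cause of these changes was not tested, except that summing leaves fewer samples.

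Genes called over the whole table moved by over 1.5 times as follows. In DESeq2 they were 344 against 209 for genotype in normal M-CSF without LPS, 682 against 454 with LPS, 962 against 617 for genotype by M-CSF with LPS and 211 against 60 for genotype by LPS in normal M-CSF (102 with no filter, 120 with the compared groups only). With the compared groups only they were 1037 against 2147 for genotype in low M-CSF with LPS, 866 against 454 in normal M-CSF with LPS and 959 against 1800 for genotype by LPS in low M-CSF. With pairs summed the 4 genotype comparisons gave 621 against 1879, 485 against 2147, 39 against 209 and 43 against 454, and the genotype interactions 97 against 519, 1 against 617, 91 against 1800 and 0 against 60. Summing also gave 2969 against 4983 and 3327 against 5132 for M-CSF in WT without and with LPS, 3539 against 5422 in T2KO without LPS, 2594 against 4061 for LPS in WT in normal M-CSF, and 853 against 2649 and 1702 against 3971 for M-CSF by LPS in WT and T2KO. With 1 library left out genotype in normal M-CSF with LPS gave 222 to 361, genotype by M-CSF with LPS 322 to 801 and genotype by LPS in normal M-CSF 30 to 60. RLE factors moved the median log2 difference of all genes by 0.11 for M-CSF in WT with LPS, 0.16 in T2KO with LPS, 0.11 for LPS in T2KO in low M-CSF, 0.11 for genotype by LPS in low M-CSF and 0.17 for M-CSF by LPS in T2KO. Trem3, Treml4 and, with LPS, Treml1 rest on few counts, which limits their precision.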
